A study of Mus musculus with 18 samples.

Results

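The collagen chains and the small leucine-rich proteoglycans that decorate collagen fibrils were followed in the exorbital lacrimal gland (LG) of mice, together with a few companion genes of the extracellular matrix and of the cells that make it. Genes were taken where the symbol was Col, a number, the letter a and a number, or where it was Dcn, Lum, Bgn, Fmod, Ogn, Prelp, Aspn, Fn1, Sparc, Postn, Lox, Loxl1, Loxl2, Fbn1, Eln, Vim, Pdgfra or Pdgfrb. This gave 61 of the 23337 genes in the count table, 43 collagen genes and 18 others, and 50 of the 61 passed the low-count filter and were tested among 13376 genes. LGs of male NOR/LtJ mice, a model of Sjögren's disease, were compared by bulk RNA sequencing with those of male BALB/cJ mice at 3, 8 and 16 weeks of age, with 3 libraries in each of the 6 groups. The genotype labels read NOR/LtJ although the sample titles say NOD, and the 3 affected groups are called NOR here. For each library of 8 or 16 weeks 2 to 3 mice of a strain and age were pooled, while the methods count 3 mice of a strain at 3 weeks, 1 for each library, so age and pooling changed together.

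BALB/c libraries held 20347504, 13261982 and 18217485 counts at 3 weeks, 14460004, 14813662 and 19548196 at 8 weeks and 20493076, 12692650 and 19023500 at 16 weeks. NOR libraries held 17176276, 11420477 and 6378613 counts at 3 weeks, 15510762, 14894378 and 17475740 at 8 weeks and 13638923, 17719984 and 7322307 at 16 weeks, so that 1 NOR library of 3 weeks and 1 of 16 weeks were the shallowest. Levels are CPM, counts scaled to the library size after TMM normalisation, in the order of the replicate numbers. A log2 fold change is followed by ± its standard error (SE), its p from the quasi-likelihood (QL) test of edgeR, adjusted by Benjamini-Hochberg over the genes tested, and how many libraries of the first group lay above or below all 3 of the other. A gene is called when its adjusted p is at most 0.05 and its log2 fold change is at least 1 in size. Where leaving out 1 library at a time changes a call, the libraries are named, with the range of the log2 fold change and of the adjusted p without each of them.

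Collagens are triple helices of alpha chains that cells export as procollagen, trim and cross-link into fibrils, networks or filaments. Fibrillar collagens carry the tensile load of the stroma, collagen IV forms the sheet of basement membranes under the secretory epithelium and around vessels, and small leucine-rich proteoglycans bind fibrils and set their width and spacing.

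Some libraries stood apart by transcripts of the parotid gland, which lies close to the exorbital LG. The summed level of 5 parotid markers (Bpifa2, Amy1, Prb1, Prh1 and Smr2, with Bpifa2 the most abundant per kb) was 1.26, 11872 and 1.71 at 3 weeks, 1626, 449.7 and 51.9 at 8 and 9.36, 6170.4 and 308 at 16 weeks (CPM) in BALB/c LGs. NOR LGs held 60.2, 54044 and 54343 at 3 weeks, 2943, 14492 and 2025 at 8 and 27.3, 3929.6 and 4.57 at 16 weeks. Bpifa2 and Amy1 made up nearly all of the sum where it was high. Smr2 had 0 counts in every 3-week library and most of its counts in the 8-week BALB/c libraries (65, 82 and 17). At 3 weeks NOR replicates 2 and 3 and BALB/c replicate 2 were high, and of the older libraries 8-week NOR replicate 2, which held more than the last of these, was kept. For each call of a member in a comparison that a 3-week group enters, the value without these 3 libraries is given too, an alternative chosen after seeing the data that leaves a lone NOR library of 3 weeks, assumed to vary like the other groups. The summed level of 6 lacrimal acinar markers (Aqp5, Bhlha15, Krt8, Krt18, Sox10 and Pigr, with Bhlha15 the most abundant per kb) ran from 1416 to 2349 CPM over the 18 libraries, and salivary acini and ducts hold some of these transcripts too.

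Between genes, levels were compared only per kilobase (kb) of exon, as the mean CPM per kb over the 18 libraries. Dcn, which encodes decorin, stood highest at 65.1, followed by Col3a1, the chain of collagen III, at 57.6 and Sparc, a collagen-binding glycoprotein, at 55.2 CPM per kb. At 3 weeks the order of these was reversed in both strains. Sparc, Col3a1 and Dcn then stood at 85.2, 74.5 and 50.2 in BALB/c and 111, 102 and 59.6 CPM per kb in NOR LGs. Col1a2 and Col1a1, the chains of collagen I, stood at 26.4 and 16.5, with the intermediate filament gene Vim at 20.1, Col7a1 at 17.9 and Bgn at 12.6 CPM per kb. The lowest was Col19a1 at 0.00118 CPM per kb. The 11 members that were not tested were Col2a1, Col11a1, Col24a1, Col9a1, Col9a2, Col19a1, Col22a1, Col25a1, Col8a2, Col10a1 and Col28a1, with 3 to 93 counts in all 18 libraries together. Among these, Col25a1 had 11, 6 and 18 counts in the BALB/c libraries of 16 weeks and 1, 1 and 1 in the NOR libraries, and was called lower there when no filter was applied (−3.18). With some libraries left out it passed the filter, through BALB/c libraries alone, and was called lower at 16 weeks without 16-week BALB/c replicates 1 and 2 or 16-week NOR replicates 1, 2 and 3 (−3.41 to −2.75, adjusted p 0.00256 to 0.0233) and its strain difference downward from 3 to 16 weeks without 3-week NOR replicate 1 (−3.02, adjusted p = 0.0324), calls not read as a result since a gene let in by its high group had to differ. The 61 genes together took a mean of 0.158%, 0.117% and 0.146% of all counts at 3, 8 and 16 weeks in BALB/c LGs (SD 0.0299, 0.00975 and 0.0184, n = 3 each). In NOR LGs the share was 0.184%, 0.134% and 0.193% (SD 0.0145, 0.0183 and 0.0445, n = 3 each).

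**Figure D1:**
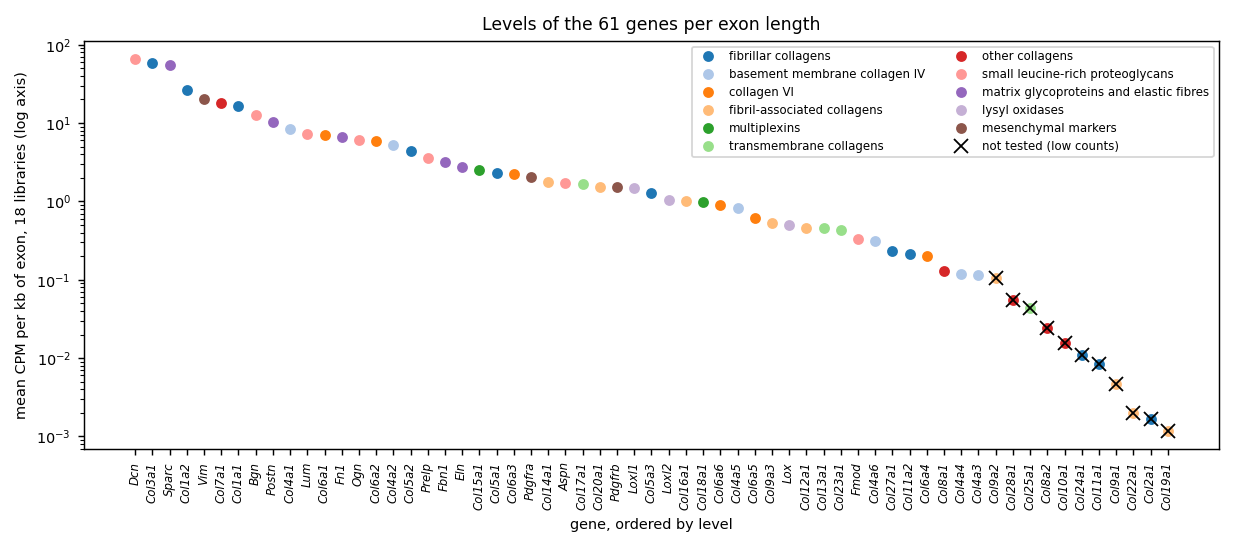
Mean CPM per kb of exon of each of the 61 genes over the 18 libraries, ordered by level on a log axis, coloured by class and crossed where the gene was not tested. The 11 crossed genes are the lowest.

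Fewer members were called between the strains at 3 weeks than at 8 or 16 weeks, as was true of all tested genes. From 3 to 8 weeks more members were called lower than higher in each strain. At 3 weeks 2 of the 50 tested members were higher in NOR than in BALB/c LGs (Col4a6 and Col6a5), where 3.54% of all tested genes were called higher and 1.71% lower. At 8 weeks 5 were higher (Col27a1, Col4a6, Col6a4, Col9a3 and Fmod; 8.93% of all genes) and 2 lower (Col5a3 and Col13a1; 2.65% of all genes). At 16 weeks 10 were higher (Col11a2, Col27a1, Col4a6, Col6a4, Col9a3, Col18a1, Col23a1, Bgn, Fmod and Vim; 14.1% of all genes) and 1 lower (Col13a1; 5.22% of all genes). Of the 50 members 4% were called higher at 3 weeks, 10% at 8 weeks and 20% at 16 weeks, near the shares of all genes, so the counts of higher members are not a result about the members. Col4a6 passed the low-count filter through NOR libraries alone, and Col6a4 through those of 16 weeks alone. Fmod passed the filter only with NOR libraries included. These genes stay in the counts given here and between ages, though the calls of Col4a6 and Col6a4 and the strain calls of Fmod are not read as a result. The median log2 fold change of the members was 0.17, 0.03 and 0.27 at 3, 8 and 16 weeks, beside 0.01, 0.02 and −0.01 for all tested genes. With 1 library left out at a time, the medians of the members ran from 0.09 to 0.22, −0.03 to 0.13 and 0.14 to 0.43. In these bulk LGs, fewer cells of a type and less RNA per cell cannot be told apart.

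From 3 to 8 weeks, 9 members fell in NOR LGs (Col1a1, Col1a2, Col3a1, Col5a3, Col4a1, Col15a1, Sparc, Eln and Lox; 3.27% of all genes) and 2 rose (Col6a4 and Col6a5; 8.88% of all genes). Over the same ages 7 members fell in BALB/c LGs (Col1a1, Col4a1, Col4a2, Fmod, Sparc, Eln and Lox; 2.58% of all genes) and 1 rose (Col6a5; 4.37% of all genes). Members had medians of −0.14 in NOR and −0.23 in BALB/c LGs, beside 0.03 and 0.00 for all genes. With 1 library left out at a time, those of the members ran from −0.26 to −0.04 in NOR and −0.31 to −0.16 in BALB/c LGs. The NOR median was −0.05 without the 3 parotid-rich libraries. From 8 to 16 weeks 4 members rose in NOR LGs (Col5a3, Col6a4, Bgn and Vim; 8.88% of all genes, with 0.778% lower), and the medians were 0.31 for the members and −0.01 for all genes. In BALB/c LGs edgeR called 0 members from 8 to 16 weeks, where 0.426% of all genes were called higher and 0.0150% lower. There, 7 members had an unadjusted p under 0.05, DESeq2 called 0 with 6 adjusted p-values not given, and the medians were 0.11 and 0.03. That of the members ran from 0.01 to 0.16 with 1 library left out at a time. Tested as a change between ages, the strain difference changed from 3 to 8 weeks for 1 member (Col5a3, downward; 0.927% of all genes, with 1.29% upward). It changed from 8 to 16 weeks for 2 members (Col5a3 and Eln, upward; 2.04% of all genes, with 0.807% downward) and from 3 to 16 weeks for 5 (Col27a1, Col9a3, Bgn, Vim and Pdgfrb, upward; 7.51% of all genes, with 3.15% downward). Medians of these changes were −0.05, 0.16 and 0.10 for the members and 0.01, −0.04 and −0.03 for all genes. With 1 library left out at a time, the medians of the members ran from −0.15 to 0.03, 0.11 to 0.35 and 0.04 to 0.28. The comparisons share libraries, so their values are set side by side and no overlap between them is read as a result.

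Some of these counts depended on single libraries. At 8 weeks the count of members higher in NOR LGs was 3, against 5, without 8-week BALB/c replicate 2 or 3 or 8-week NOR replicate 1. The count from 8 to 16 weeks in NOR LGs was 8 without 8-week NOR replicate 1 and 7 without 16-week NOR replicate 1. In BALB/c LGs 5 members were called from 3 to 8 weeks without 3-week BALB/c replicate 1. For the strain difference, the change from 3 to 8 weeks took 2 members (Col5a3 and Postn) without 3-week BALB/c replicate 3. Its change from 8 to 16 weeks took 5 members without 16-week BALB/c replicate 3 or 16-week NOR replicate 1, 4 without 8-week NOR replicate 1, and 1 without 16-week BALB/c replicate 1 or 2, 8-week NOR replicate 3 or 16-week NOR replicate 2. Leaving out the 3 parotid-rich libraries of 3 weeks gave 2 higher and 1 lower members at 3 weeks (Col4a6 and Col6a5 higher, and Col25a1 lower, where the lone NOR library had 0 counts, those left out 5 and 2 and the BALB/c libraries 14 and 6, so that the choice of libraries fixed this call), 1 and 6 from 3 to 8 weeks in NOR LGs, and 1 and 7 in BALB/c LGs. Changes of the strain difference then took 1 member from 3 to 8 weeks and 4 from 3 to 16 weeks, Eln among them, at 1.08 with an adjusted p of 0.0266 by edgeR's QL test.

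**Figure D2:**
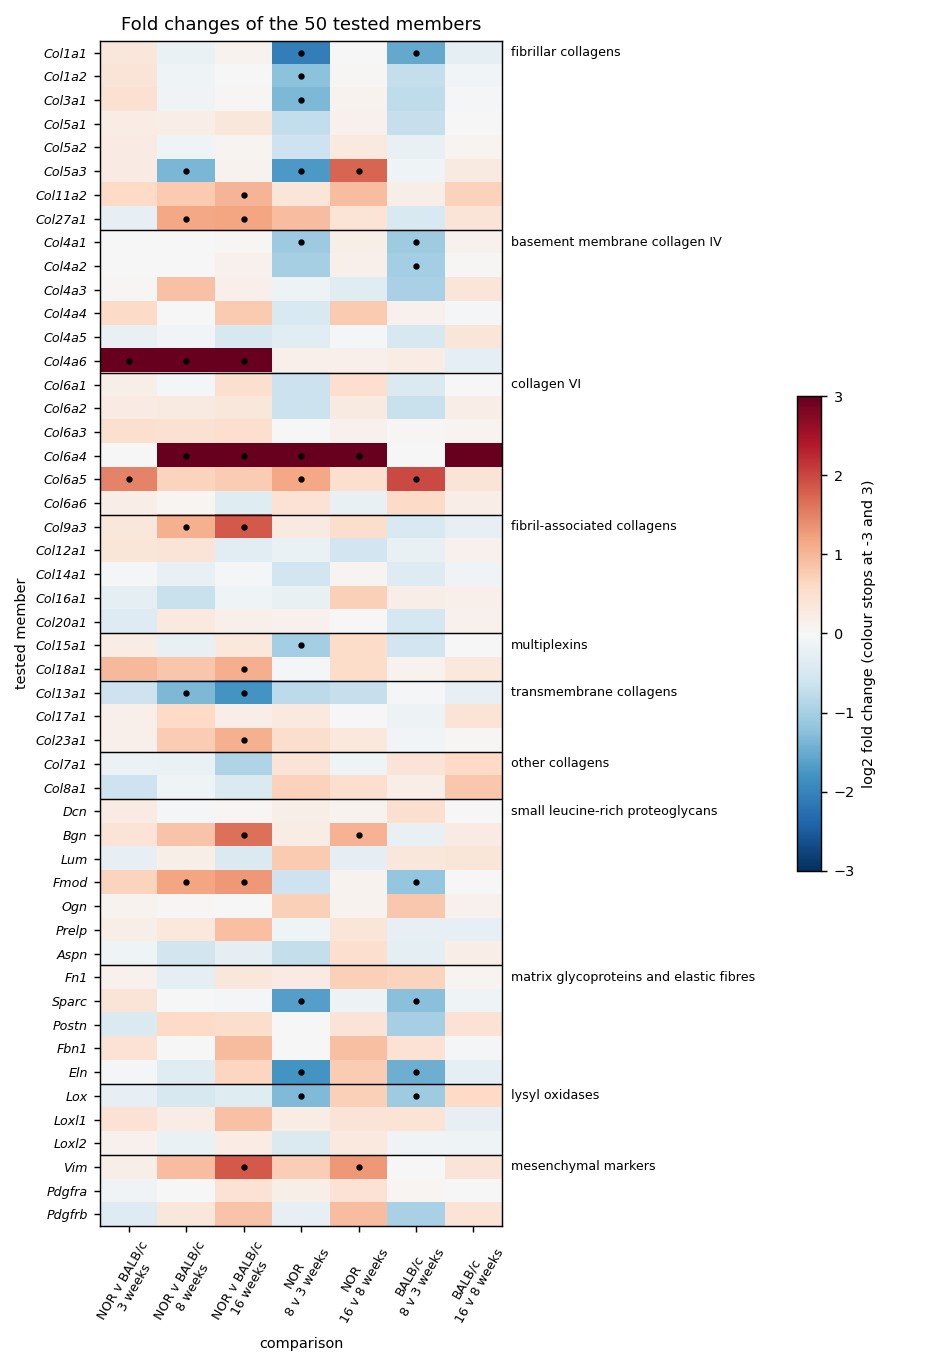
Log2 fold changes of the 50 tested members (vertical axis, grouped by class) in the 3 strain comparisons and the 4 comparisons of ages (horizontal axis), with a dot where the gene was called. The colour scale stops at −3 and 3, and the colour of Col6a4, with libraries at 0, is no measure of size.

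Of the fibrillar collagens Col1a1 fell from 3 to 8 weeks in both strains, and strain differences lay in the minor chains Col5a3, Col11a2 and Col27a1. Col1a1 in BALB/c LGs stood at 169, 133 and 97.9 at 3 weeks, 58.4, 44.1 and 36.0 at 8 and 33.9, 38.4 and 39.6 at 16 weeks. NOR LGs held Col1a1 at 167, 174 and 165 at 3 weeks, 45.7, 41.8 and 31.9 at 8 and 35.5, 42.8 and 41.1 at 16 weeks. Every 3-week library lay above every older library of its strain, and the strains overlapped at each age. Col1a1 fell from 3 to 8 weeks, at −2.08 ± 0.18 (adjusted p = 1.08e-07, 3 of 3 below) in NOR and −1.54 ± 0.18 (adjusted p = 2.54e-06, 3 of 3 below) in BALB/c LGs by edgeR's QL test. Col3a1 in BALB/c LGs was measured at 488, 452 and 303 at 3 weeks, 285, 257 and 188 at 8 and 203, 227 and 271 at 16 weeks. NOR LGs held Col3a1 at 620.3, 576 and 505 at 3 weeks, 248.9, 231 and 192 at 8 and 226, 257 and 235 at 16 weeks. The 3-week libraries were again the highest of each strain, and only at 3 weeks did the NOR libraries lie clear of the BALB/c libraries. Col3a1 fell in NOR LGs, at −1.34 ± 0.18 (adjusted p = 1.36e-05, 3 of 3 below), and its value in BALB/c LGs, −0.77 ± 0.17, did not reach the cutoff of 1. Col1a2 fell in NOR LGs from a mean of 231 to 98.3 CPM (SD 19.7 and 12.8, n = 3), a log2 fold change of −1.23 ± 0.15 (adjusted p = 7.60e-06, 3 of 3 below). The strain difference of Col1a1, Col1a2 and Col3a1 did not change by a called amount from 3 to 8 weeks (−0.55 ± 0.25, −0.53 ± 0.22 and −0.57 ± 0.25), so the falls are not shown to differ between strains. Without the 3 parotid-rich libraries the NOR values were −2.11, −1.34 and −1.51, and that of Col1a1 in BALB/c LGs −1.55.

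Col5a3 in BALB/c LGs stood at 9.20, 8.15 and 6.77 at 3 weeks, 8.41, 7.55 and 6.21 at 8 and 9.26, 7.54 and 9.75 at 16 weeks. NOR LGs held Col5a3 at 8.29, 11.2 and 8.96 at 3 weeks, 2.87, 3.47 and 2.23 at 8 and 9.94, 9.84 and 8.93 at 16 weeks. For this minor chain of collagen V, the 8-week NOR libraries were low, and all 15 other libraries lay above them, between 6.21 and 11.2 CPM. Col5a3 was lower in NOR than in BALB/c LGs at 8 weeks (−1.36 ± 0.18 (adjusted p = 1.48e-05, 3 of 3 below) by edgeR's QL test). It fell in NOR LGs from 3 to 8 weeks, at −1.73 ± 0.18 (adjusted p = 1.31e-06, 3 of 3 below) and rose again to 16 weeks by 1.75 ± 0.18 (adjusted p = 3.15e-06, 3 of 3 above). The strain difference changed by −1.60 ± 0.25, adjusted p = 0.00112, from 3 to 8 weeks and by 1.47 ± 0.24, adjusted p = 0.00267, from 8 to 16 weeks, and without the 3 parotid-rich libraries the first change was −1.44 (adjusted p = 0.0352) and the NOR fall −1.58. Col27a1 in BALB/c LGs was at 1.42, 1.29 and 1.65 at 3 weeks, 1.10, 1.26 and 0.846 at 8 and 1.71, 1.22 and 1.20 at 16 weeks. NOR LGs held Col27a1 at 1.43, 1.24 and 0.879 at 3 weeks, 2.23, 2.17 and 2.70 at 8 and 2.35, 4.16 and 2.76 at 16 weeks. NOR libraries lay above all BALB/c libraries at 8 and 16 weeks, while the strains overlapped at 3 weeks. The strain difference of Col27a1 was 1.16 ± 0.27 (adjusted p = 0.00298, 3 of 3 above) at 8 weeks and 1.18 ± 0.25 (adjusted p = 0.000595, 3 of 3 above) at 16 weeks. The 8-week call ended without 8-week BALB/c replicate 3 (0.996, adjusted p = 0.0241), and that of 16 weeks without 16-week NOR replicate 2 (0.90, adjusted p = 0.0118). From 3 to 16 weeks its strain difference changed by 1.42 ± 0.39, adjusted p = 0.0125, and 1.31 (adjusted p = 0.0868, not called) without the parotid-rich libraries. Without 3-week NOR replicate 1 (1.11, adjusted p = 0.0224), Col27a1 was also called higher from 3 to 8 weeks in NOR LGs, where its value over all libraries was 0.94 ± 0.28.

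Col11a2 in BALB/c LGs stood at 0.985, 0.323 and 0.570 at 3 weeks, 0.708, 0.769 and 0.733 at 8 and 0.998, 1.07 and 1.49 at 16 weeks. NOR LGs held Col11a2 at 0.929, 1.14 and 0.879 at 3 weeks, 1.41, 1.05 and 1.35 at 8 and 2.00, 2.82 and 2.45 at 16 weeks. This chain of collagen XI was higher in all NOR than in all BALB/c libraries at 8 and 16 weeks, and the strains overlapped at 3 weeks. Its strain difference of 1.03 ± 0.28 (adjusted p = 0.00439, 3 of 3 above) at 16 weeks was called by edgeR's QL test, and ended without 16-week BALB/c replicates 1 and 2 or 16-week NOR replicate 2 (0.90 to 0.96, adjusted p 0.0186 to 0.0321). Col11a2 had a log2 fold change of 0.94 ± 0.28 (adjusted p = 0.0132, 3 of 3 above) from 8 to 16 weeks in NOR LGs, under the cutoff, and was called without 8-week NOR replicate 1 or 16-week NOR replicate 1 (1.06 to 1.116, adjusted p 0.00559 to 0.0197). Col5a1 and Col5a2, the main chains of collagen V, were not called in any of the 10 comparisons, with log2 fold changes from −0.73 to 0.34.

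**Figure D3:**
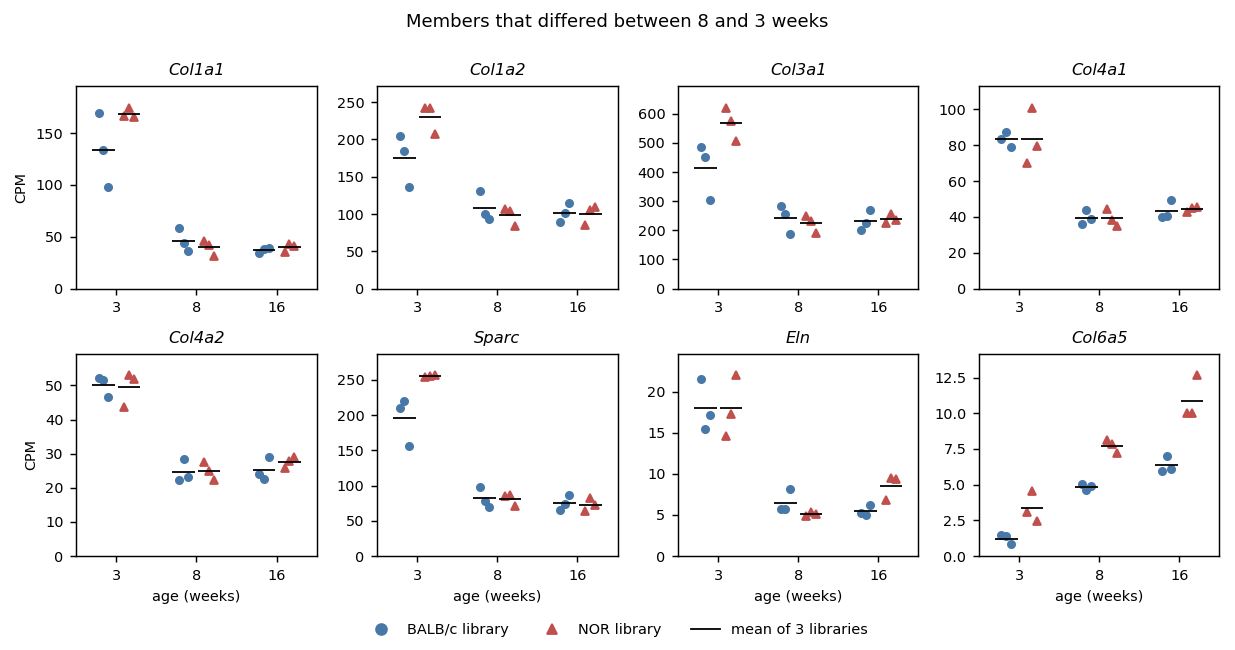
CPM (vertical axis) of Col1a1, Col1a2, Col3a1, Col4a1, Col4a2, Sparc, Eln and Col6a5 in each library at 3, 8 and 16 weeks (horizontal axis), with BALB/c libraries as circles, NOR as triangles and means as bars. The 3-week points lie above the older points of the same strain for the first 7 genes, and below them for Col6a5.

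Collagen IV chains assemble into 3 kinds of trimer, and the alpha 1 and alpha 2 chains make the trimer found in nearly all basement membranes. Col4a1 in BALB/c LGs stood at 83.4, 87.6 and 79.1 at 3 weeks, 35.9, 44.1 and 38.8 at 8 and 40.0, 40.6 and 49.3 at 16 weeks. NOR LGs held Col4a1 at 69.8, 101 and 79.8 at 3 weeks, 44.3, 38.4 and 34.9 at 8 and 42.9, 44.7 and 45.4 at 16 weeks. Levels at 3 weeks lay above those of all older libraries of the strain, and the strains overlapped at every age. Col4a1 fell from 3 to 8 weeks, at −1.09 ± 0.12 (adjusted p = 2.17e-06, 3 of 3 below) in NOR and −1.07 ± 0.12 (adjusted p = 1.87e-06, 3 of 3 below) in BALB/c LGs by edgeR's QL test. The NOR call ended without 3-week NOR replicate 2 (−0.93, adjusted p = 1.45e-05), and was −0.87 (adjusted p = 0.000569) without the 3 parotid-rich libraries. Col4a2 in BALB/c LGs was measured at 52.2, 51.6 and 46.6 at 3 weeks, 22.4, 28.4 and 23.1 at 8 and 23.99, 22.5 and 28.9 at 16 weeks. NOR LGs held Col4a2 at 43.7, 53.0 and 51.8 at 3 weeks, 27.7, 24.8 and 22.2 at 8 and 25.8, 27.8 and 28.9 at 16 weeks. Again the 3-week libraries were highest and the strains overlapped. Col4a2 fell, at −1.02 ± 0.11 (adjusted p = 1.51e-06, 3 of 3 below) in BALB/c LGs, a call that ended without 3-week BALB/c replicate 1 or 8-week BALB/c replicates 1 and 3 (−0.99 to −0.96, adjusted p 1.80e-05 to 2.67e-05). Its value in NOR LGs, −0.99 ± 0.11 (adjusted p = 3.29e-06, 3 of 3 below), missed the cutoff of 1 and passed it without 3-week NOR replicate 1 or 8-week NOR replicate 1 (−1.07, adjusted p 4.91e-06 to 8.45e-06) and when no low-count filter was applied (−1.01). Over these ages the strain difference changed by −0.02 ± 0.17 for Col4a1 and 0.04 ± 0.16 for Col4a2, so no strain difference in the fall was detected, and without the 3 parotid-rich libraries the BALB/c falls were −1.05 and −1.02.

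Col4a6 in BALB/c LGs was near the limit of detection at 0.109, 0.565 and 0.253 at 3 weeks, 0.0786, 0.420 and 0.451 at 8 and 0.380, 0.152 and 0.240 at 16 weeks. NOR LGs held Col4a6 at 2.5, 4.37 and 3.69 at 3 weeks, 3.87, 3.91 and 3.88 at 8 and 3.52, 4.82 and 4.57 at 16 weeks. For Col4a6, a chain of the alpha 5 and alpha 6 trimer of some epithelial basement membranes, every NOR library lay above every BALB/c library. Col4a6 passed the low-count filter through the NOR libraries alone, as BALB/c libraries held 1 to 8 counts. As with Col25a1, its strain calls are therefore not read as a result, and its levels are given. The strain difference was 3.57 ± 0.42 (adjusted p = 5.98e-06, 3 of 3 above) at 3 weeks, 3.52 ± 0.39 (adjusted p = 2.06e-06, 3 of 3 above) at 8 weeks and 3.96 ± 0.39 (adjusted p = 1.51e-07, 3 of 3 above) at 16 weeks by edgeR's QL test, that is 11.9-fold, 11.4-fold and 15.5-fold. At 3 weeks it was 4.23 (adjusted p = 5.09e-06) without BALB/c replicate 2, and 3.75 (adjusted p = 0.000398) without the 3 parotid-rich libraries. Between ages Col4a6 was not called in either strain, with log2 fold changes from −0.29 to 0.22. Its partner Col4a5 ran from 4.04 to 7.35 CPM over the 18 libraries and was not called in any of the 10 comparisons, with strain differences of −0.21, −0.07 and −0.49 at 3, 8 and 16 weeks. Col4a3 and Col4a4, chains of the kidney and lung trimer, were low, from 0.457 to 1.55 and from 0.620 to 1.53 CPM, and were not called over all libraries. Without 8-week NOR replicate 3, Col4a3 was called higher in NOR LGs at 8 weeks, at 1.21, and without 8-week NOR replicate 1 Col4a4 was called higher from 8 to 16 weeks in NOR LGs, at 1.08.

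Collagen IV genes lie in head-to-head pairs. By the coordinates of the count table, starts of Col4a1 and Col4a2 on chromosome 8 are separated by 2 bases, those of Col4a4 and Col4a3 on chromosome 1 by 71 and those of Col4a6 and Col4a5 on chromosome X by 1342. Col4a1 and Col4a2 moved together between ages, while Col4a6 lay higher in every NOR than in every BALB/c library and Col4a5 was not called. The start regions of these pairs are therefore shown, chosen after the values were seen. RefSeq promoters of build GRCm38.p6, from 250 bases before to 50 bases after the start, were found for 45 of the 61 genes (49 promoters). CCAAT, read on both strands (ATTGG on the other), was in 37.4% of all 32851 promoters and in 36.7% of those of the members, GGGCGG in 35.7% and 51%, and TATAAA in 13.6% and 18.4%, and matches of CCAAT and GGGCGG can share bases where ATTGG runs into GGGCGG. Capitals mark CCAAT or ATTGG in the 300 bases of each gene, given 5′ to 3′ on its own strand, and Col4a1 and Col4a2 share 78 bases of these windows, as RefSeq, unlike the count table, starts Col4a2 within Col4a1. Col4a6 holds no CCAAT in this window and each of the others holds 1, which says nothing about a binding factor. The windows are Col4a1 at chr8:11312777-11313076 (−), Col4a2 at chr8:11312555-11312854 (+), Col4a6 at chrX:141474027-141474326 (−) and Col4a5 at chrX:141475169-141475468 (+).
Col4a1: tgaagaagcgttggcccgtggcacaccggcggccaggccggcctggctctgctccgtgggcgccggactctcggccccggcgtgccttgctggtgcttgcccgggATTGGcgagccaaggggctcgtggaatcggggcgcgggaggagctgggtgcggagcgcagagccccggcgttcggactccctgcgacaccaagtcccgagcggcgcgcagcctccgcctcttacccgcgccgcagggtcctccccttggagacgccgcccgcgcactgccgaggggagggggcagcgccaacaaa
Col4a2: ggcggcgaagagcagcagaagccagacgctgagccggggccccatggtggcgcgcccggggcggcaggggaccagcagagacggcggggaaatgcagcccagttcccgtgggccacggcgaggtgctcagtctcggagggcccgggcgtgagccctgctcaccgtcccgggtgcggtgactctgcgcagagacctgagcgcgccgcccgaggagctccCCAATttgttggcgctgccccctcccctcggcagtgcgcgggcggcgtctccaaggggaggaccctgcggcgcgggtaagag
Col4a6: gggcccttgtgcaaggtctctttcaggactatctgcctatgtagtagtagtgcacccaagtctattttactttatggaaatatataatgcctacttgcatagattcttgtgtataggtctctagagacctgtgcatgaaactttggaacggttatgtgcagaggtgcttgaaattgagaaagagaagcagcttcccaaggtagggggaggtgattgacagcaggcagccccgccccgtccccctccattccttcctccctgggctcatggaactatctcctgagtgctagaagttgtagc
Col4a5: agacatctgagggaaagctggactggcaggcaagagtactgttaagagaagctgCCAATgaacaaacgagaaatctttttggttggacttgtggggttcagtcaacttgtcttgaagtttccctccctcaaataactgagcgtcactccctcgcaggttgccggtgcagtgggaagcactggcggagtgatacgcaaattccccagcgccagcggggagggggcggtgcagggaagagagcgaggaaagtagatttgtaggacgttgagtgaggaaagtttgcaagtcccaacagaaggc

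Collagen VI forms beaded filaments around cells, from a core of Col6a1 and Col6a2 with 1 of several longer partner chains. Col6a1 in BALB/c LGs stood at 35.6, 35.7 and 24.4 at 3 weeks, 25.3, 23.8 and 21.5 at 8 and 21.9, 21.1 and 26.5 at 16 weeks. NOR LGs held Col6a1 at 34.6, 37.2 and 36.2 at 3 weeks, 25.2, 23.5 and 20.4 at 8 and 28.4, 36.0 and 32.6 at 16 weeks. NOR libraries lay above all BALB/c libraries at 16 weeks alone, and the strains overlapped at 3 and 8 weeks. At 16 weeks the strain difference of Col6a1 was 0.48 ± 0.13, under the cutoff of 1. The core chain Col6a2 and the partner Col6a3 ran from 15.2 to 31.0 and from 16.4 to 32.6 CPM over the 18 libraries and were not called in any of the 10 comparisons. Col6a5 in BALB/c LGs was at 1.48, 1.37 and 0.823 at 3 weeks, 5.03, 4.61 and 4.91 at 8 and 5.99, 7.003 and 6.10 at 16 weeks. NOR LGs held Col6a5 at 3.07, 4.56 and 2.46 at 3 weeks, 8.15, 7.81 and 7.23 at 8 and 10.01, 10 and 12.7 at 16 weeks. This partner chain was lowest at 3 weeks in both strains, and at each age all 3 NOR libraries lay above all 3 BALB/c libraries. Its log2 fold change from 3 to 8 weeks was 1.16 ± 0.19 (adjusted p = 0.000112, 3 of 3 above) in NOR and 1.98 ± 0.22 (adjusted p = 1.32e-06, 3 of 3 above) in BALB/c LGs, and these rises did not differ by a called amount (−0.82 ± 0.29, adjusted p = 0.132). Strain differences of Col6a5 were 1.49 ± 0.24 (adjusted p = 0.000179, 3 of 3 above) at 3 weeks, and 0.67 ± 0.17 and 0.77 ± 0.16, not called, at 8 and 16 weeks. Without the 3 parotid-rich libraries it was 1.38 (adjusted p = 0.0106) at 3 weeks, and the rises were 1.29 and 2.04.

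Col6a4 in BALB/c LGs stood at 0, 0 and 0 at 3 weeks, 0, 0 and 0 at 8 and 0.0475, 0.0761 and 0.192 at 16 weeks. NOR LGs held Col6a4 at 0, 0 and 0 at 3 weeks, 0.235, 0.186 and 0.411 at 8 and 4.28, 12.3 and 9.36 at 16 weeks. The NOR libraries of 16 weeks stood alone with 62, 314 and 88 counts, those of 8 weeks held 4, 3 and 7, the BALB/c libraries of 16 weeks 1, 1 and 4, and the other 9 libraries none. Col6a4, another partner chain, passed the low-count filter through the NOR libraries of 16 weeks alone. As with Col25a1, its calls against the other groups had to follow. Its remaining calls rest on at most 7 counts in a library, so no call of Col6a4 is read as a result. Col6a4 was 86.1-fold higher in NOR than in BALB/c LGs at 16 weeks (95% counting interval 39.3 to 236), with a fitted log2 fold change of 6.22 ± 0.54 (adjusted p = 7.73e-07, 3 of 3 above) by edgeR's QL test. That fitted value was 7.06 (adjusted p = 4.93e-06) without BALB/c replicate 3. From 8 to 16 weeks Col6a4 rose 33.7-fold in NOR LGs (95% counting interval 19.9 to 62.1; adjusted p = 1.44e-05, 3 of 3 libraries above). At 8 weeks NOR LGs held at least 4.16-fold more than BALB/c LGs (adjusted p = 0.0211) and at least 2.81-fold more than at 3 weeks (adjusted p = 0.0357), against a floor of 3 counts over the group at 0, and all 3 libraries lay above. With only the compared groups fitted, Col6a4 did not enter either test. The 8-week strain call ended without 8-week BALB/c replicates 2 and 3 or 8-week NOR replicate 3 (adjusted p 0.0517 to 0.0605), and the rise from 3 to 8 weeks without 3-week NOR replicates 1, 2 and 3 or 8-week NOR replicates 1 and 3 (adjusted p 0.0545 to 0.111) and without the 3 parotid-rich libraries (adjusted p = 0.183). The change of its strain difference from 3 to 16 weeks was called by DESeq2 and not by edgeR (adjusted p = 0.0162). Counting intervals and floors cover counting error only. Col6a6 in BALB/c LGs stood apart from these at 5.09, 4.76 and 5.001 at 3 weeks, 6.68, 8.53 and 6.94 at 8 and 7.79, 9.44 and 8.41 at 16 weeks. NOR LGs held Col6a6 at 5.29, 6.75 and 4.75 at 3 weeks, 8.04, 7.50 and 7.52 at 8 and 6.21, 6.55 and 7.23 at 16 weeks. Col6a6 was lowest at 3 weeks in BALB/c LGs, and its 16-week NOR libraries lay below all BALB/c libraries of that age, with a strain difference of −0.36 ± 0.13, under the cutoff.

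Collagens with interrupted helices sit on fibril surfaces, and Col9a3 was the member of this class that was called. Col9a3 in BALB/c LGs stood at 1.20, 1.21 and 1.33 at 3 weeks, 1.02, 0.559 and 1.13 at 8 and 0.618, 0.533 and 1.10 at 16 weeks. NOR LGs held Col9a3 at 1.71, 1.33 and 1.76 at 3 weeks, 2.11, 1.49 and 2.12 at 8 and 2.14, 3.06 and 3.08 at 16 weeks. All NOR libraries lay above all BALB/c libraries of the same age, though at 3 weeks the nearest pair was equal to 3 digits. The strain difference of this collagen IX chain was 1.06 ± 0.30 (adjusted p = 0.0120, 3 of 3 above) at 8 weeks and 1.83 ± 0.29 (adjusted p = 3.98e-05, 3 of 3 above) at 16 weeks by edgeR's QL test, and 0.35 ± 0.31, not called, at 3 weeks. The 8-week call ended without 8-week BALB/c replicate 2 or 8-week NOR replicates 1 and 3 (0.81 to 0.98, adjusted p 0.0427 to 0.0730). From 3 to 16 weeks the difference changed by 1.48 ± 0.43, adjusted p = 0.0176, a call that ended without 16-week BALB/c replicate 1 (1.33, adjusted p = 0.0519) and without the 3 parotid-rich libraries (1.42, adjusted p = 0.0963). The exons of Col9a3 share 229 bases, or 8.05% of its length, with the gene Tcfl5 on the opposite strand, and the counting command had no strand option. Col12a1 in BALB/c LGs was measured at 5.91, 5.08 and 5.25 at 3 weeks, 5.11, 3.85 and 4.96 at 8 and 5.08, 4.11 and 5.91 at 16 weeks. NOR LGs held Col12a1 at 8.00, 7.04 and 5.45 at 3 weeks, 6.45, 6.14 and 5.58 at 8 and 3.52, 3.57 and 5.53 at 16 weeks. This fibril-associated chain had its 2 lowest values among the NOR libraries of 16 weeks, and the strains overlapped at that age. Col12a1 fell short of a call from 8 to 16 weeks in NOR LGs (−0.57 ± 0.19). Col14a1 in BALB/c LGs was at 15.5, 16.5 and 11.1 at 3 weeks, 11.8, 11.3 and 10.1 at 8 and 8.60, 9.74 and 12.6 at 16 weeks. NOR LGs held Col14a1 at 12.6, 16.1 and 13.4 at 3 weeks, 10.4, 9.05 and 8.93 at 8 and 9.87, 10.7 and 8.93 at 16 weeks. The strains overlapped at each age, and Col14a1 was not called in any of the 10 comparisons, with −0.57 ± 0.16 from 3 to 8 weeks in NOR LGs its largest shift. Col16a1 and Col20a1 ran from 2.67 to 7.49 and from 4.40 to 9.30 CPM and were not called in any of the 10 comparisons either.

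The multiplexins Col15a1 and Col18a1 are basement membrane collagens that carry sugar chains. Col15a1 in BALB/c LGs stood at 16.3, 16.3 and 16.3 at 3 weeks, 12.2, 10.4 and 10.3 at 8 and 11.6, 8.45 and 12.6 at 16 weeks. NOR LGs held Col15a1 at 16.2, 21.5 and 19.5 at 3 weeks, 10.498, 8.93 and 8.81 at 8 and 12.2, 13.6 and 15.9 at 16 weeks. Libraries of 3 weeks were the highest of each strain, and the NOR libraries of 8 weeks the lowest of theirs. Col15a1 fell from 3 to 8 weeks in NOR LGs, at −1.01 ± 0.14 (adjusted p = 2.69e-05, 3 of 3 below) by edgeR's QL test, a call that ended without 3-week NOR replicates 2 and 3 or 8-week NOR replicates 2 and 3 (−0.99 to −0.90, adjusted p 0.000180 to 0.000387) and without the 3 parotid-rich libraries (−0.83, adjusted p = 0.00733). In BALB/c LGs the value was −0.57 ± 0.14, not called, and the difference between these falls was −0.43 ± 0.20, adjusted p = 0.243. Col18a1 in BALB/c LGs was at 3.34, 3.79 and 2.85 at 3 weeks, 2.36, 4.75 and 3.55 at 8 and 4.56, 3.65 and 4.997 at 16 weeks. NOR LGs held Col18a1 at 3.86, 7.70 and 8.96 at 3 weeks, 7.04, 6.76 and 5.47 at 8 and 7.18, 10.9 and 10.1 at 16 weeks. At each age all NOR libraries lay above all BALB/c libraries. Col18a1 was called higher at 16 weeks (1.08 ± 0.25, adjusted p = 0.00127, 3 of 3 above), a call that ended without 16-week BALB/c replicate 2 or 16-week NOR replicate 2 (0.97, adjusted p 0.00819 to 0.00898). At 3 weeks its strain difference of 0.98 ± 0.28 (adjusted p = 0.0225, 3 of 3 above) missed the cutoff and passed it without 3-week BALB/c replicate 2 or 3-week NOR replicate 1 (1.07 to 1.31, adjusted p 0.00154 to 0.0315) and by DESeq2 (1.01). At 8 weeks it was 0.84 ± 0.26 (adjusted p = 0.0224, 3 of 3 above), and passed the cutoff without 8-week BALB/c replicate 2 (1.09, adjusted p = 0.0116).

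Transmembrane collagens span the membrane of the cell that makes them. Col13a1 in BALB/c LGs stood at 2.19, 2.42 and 1.33 at 3 weeks, 1.02, 2.17 and 2.43 at 8 and 1.71, 1.29 and 1.78 at 16 weeks. NOR LGs held Col13a1 at 1.07, 1.33 and 1.58 at 3 weeks, 0.586, 0.868 and 0.764 at 8 and 0.552, 0.353 and 0.532 at 16 weeks. NOR libraries lay below all BALB/c libraries at 8 and 16 weeks, and the strains overlapped at 3 weeks. The strain difference of Col13a1 was −1.36 ± 0.33 (adjusted p = 0.00449, 3 of 3 below) at 8 weeks and −1.80 ± 0.37 (adjusted p = 0.000430, 3 of 3 below) at 16 weeks by edgeR's QL test, the only member called lower at both ages. Col23a1 in BALB/c LGs was at 2.03, 1.61 and 2.15 at 3 weeks, 1.73, 1.82 and 1.92 at 8 and 1.95, 1.90 and 1.73 at 16 weeks. NOR LGs held Col23a1 at 2.14, 2.19 and 2.11 at 3 weeks, 3.17, 3.72 and 2.47 at 8 and 3.73, 4 and 3.93 at 16 weeks. The strains overlapped at 3 weeks, and NOR libraries lay above all BALB/c libraries at 8 and 16 weeks. Col23a1 was called higher at 16 weeks (1.06 ± 0.18, adjusted p = 7.34e-05, 3 of 3 above) and had 0.77 ± 0.19 at 8 weeks, under the cutoff. Its strain difference changed by 0.92 ± 0.27, adjusted p = 0.0196, from 3 to 16 weeks, and passed the cutoff without 3-week BALB/c replicate 2 (1.02, adjusted p = 0.0184). Col17a1 in BALB/c LGs was measured at 7.72, 6.94 and 8.99 at 3 weeks, 5.82, 8.04 and 7.50 at 8 and 7.41, 9.06 and 12.1 at 16 weeks. NOR LGs held Col17a1 at 8.79, 9.89 and 7.38 at 3 weeks, 10.4, 11.3 and 10.8 at 8 and 8.97, 12.3 and 11.6 at 16 weeks. For Col17a1, a collagen of hemidesmosomes and the highest of this class per kb (1.69 CPM), the strains overlapped at 3 and 16 weeks and not at 8 weeks, where the difference was 0.60 ± 0.17 and not called.

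Col7a1 in BALB/c LGs stood at 153, 119 and 129 at 3 weeks, 139, 203 and 182 at 8 and 289, 241 and 267 at 16 weeks. NOR LGs held Col7a1 at 111, 132 and 109 at 3 weeks, 149, 139.5 and 172 at 8 and 155, 117 and 153 at 16 weeks. Col7a1, which forms the anchoring fibrils under epithelia, was highest in the BALB/c libraries of 16 weeks, which lay above all 15 other libraries. The strain difference at 16 weeks was −0.91 ± 0.14 (adjusted p = 3.38e-05, 3 of 3 below) by edgeR's QL test, under the cutoff, and −0.19 ± 0.14 at 8 weeks. From 8 to 16 weeks Col7a1 had 0.60 ± 0.14 (adjusted p = 0.0370, 3 of 3 above) in BALB/c and −0.12 ± 0.14 in NOR LGs, and the strain difference changed by −0.72 ± 0.20, adjusted p = 0.0354, all under the cutoff. It was the single member with an adjusted p of at most 0.05 between 8 and 16 weeks in BALB/c LGs, and its exons hold the microRNA gene Mir711 on the same strand over 36 bases (0.391% of its length). Col8a1 ran from 0.214 to 1.59 CPM and was not called in any of the 10 comparisons.

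Among the small leucine-rich proteoglycans Bgn and Fmod were called between the strains, and the strain calls of Fmod are not read as a result. Dcn in BALB/c LGs stood at 112, 109 and 92.2 at 3 weeks, 182, 118 and 141 at 8 and 143, 156 and 139.9 at 16 weeks. NOR LGs held Dcn at 135, 118 and 119.5 at 3 weeks, 140.1, 149 and 132 at 8 and 142, 158 and 155 at 16 weeks. The strains overlapped at 8 and 16 weeks, and BALB/c libraries of 3 weeks lay below all others of their strain. Dcn, the most abundant member per kb over the 18 libraries together though not at 3 weeks, was not called in any of the 10 comparisons, with strain differences of 0.25 ± 0.12, −0.06 ± 0.12 and 0.05 ± 0.12 at 3, 8 and 16 weeks. Bgn in BALB/c LGs was measured at 21.02, 20.6 and 18.8 at 3 weeks, 17.5, 18.2 and 16.1 at 8 and 15.6, 16.1 and 29.6 at 16 weeks. NOR LGs held Bgn at 26.1, 24.9 and 29.7 at 3 weeks, 36.0, 30.9 and 27.2 at 8 and 45.3, 77.1 and 69.7 at 16 weeks. Biglycan transcripts were higher in all NOR than in all BALB/c libraries of the same age, and highest in the NOR libraries of 16 weeks. Bgn had a strain difference of 1.64 ± 0.20 (adjusted p = 2.11e-06, 3 of 3 above) at 16 weeks by edgeR's QL test, and of 0.86 ± 0.21 at 8 weeks, under the cutoff. It rose in NOR LGs from 8 to 16 weeks by 1.03 ± 0.20 (adjusted p = 0.000656, 3 of 3 above), a call that ended without 8-week NOR replicate 3 or 16-week NOR replicate 2 (0.90 to 0.93, adjusted p 0.00542 to 0.00616). From 3 to 16 weeks the strain difference of Bgn grew by 1.23 ± 0.29, adjusted p = 0.00565, and by 1.28 (adjusted p = 0.0484) without the 3 parotid-rich libraries. From 8 to 16 weeks it changed by 0.78 ± 0.29, not called, and was called without 16-week BALB/c replicate 3 or 16-week NOR replicate 1 (1.04 to 1.21, adjusted p 0.00844 to 0.00924).

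Fmod in BALB/c LGs stood at 1.15, 0.646 and 1.14 at 3 weeks, 0.472, 0.280 and 0.564 at 8 and 0.475, 0.533 and 0.336 at 16 weeks. NOR LGs held Fmod at 1.00, 1.62 and 2.46 at 3 weeks, 0.997, 1.05 and 0.999 at 8 and 1.38, 0.902 and 1.06 at 16 weeks. NOR libraries lay above all BALB/c libraries at 8 and 16 weeks, with overlap at 3 weeks. Fmod held 6, 4 and 10 counts in the BALB/c libraries of 8 weeks and 10, 7 and 7 in those of 16 weeks. It would not have passed the low-count filter without NOR libraries, so, as with Col4a6, its strain calls are not read as a result. The strain difference of Fmod was 1.18 ± 0.38 (adjusted p = 0.0272, 3 of 3 above) at 8 weeks and 1.31 ± 0.37 (adjusted p = 0.00662, 3 of 3 above) at 16 weeks by edgeR's QL test. The 8-week call ended without 8-week BALB/c replicates 1 and 2 or 8-week NOR replicates 1, 2 and 3 (0.95 to 1.22, adjusted p 0.0542 to 0.121) and by DESeq2. Fmod fell in BALB/c LGs from 3 to 8 weeks, at −1.15 ± 0.39 (adjusted p = 0.0326, 3 of 3 below), a call that ended without 3-week BALB/c replicates 1 and 3 or 8-week BALB/c replicates 1 and 2 (−1.19 to −0.92, adjusted p 0.0686 to 0.134), by DESeq2 and with the parotid level as a covariate, and that was −1.36 (adjusted p = 0.0116) without the parotid-rich libraries. Prelp in BALB/c LGs was at 13.4, 13.8 and 10.9 at 3 weeks, 12.3, 9.58 and 10.04 at 8 and 8.08, 9.29 and 9.66 at 16 weeks. NOR LGs held Prelp at 14.1, 14.8 and 13.9 at 3 weeks, 13.9, 12.7 and 12.8 at 8 and 15.5, 17.8 and 17.3 at 16 weeks. Its NOR libraries lay above all BALB/c libraries of the same age, and the gap was widest at 16 weeks. Prelp had a strain difference of 0.91 ± 0.11 at 16 weeks, under the cutoff.

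Lum in BALB/c LGs stood at 13.6, 14.3 and 8.99 at 3 weeks, 19.9, 12.8 and 13.99 at 8 and 16.7, 20.4 and 22.5 at 16 weeks. NOR LGs held Lum at 11.6, 9.70 and 8.96 at 3 weeks, 17.2, 18.2 and 17.4 at 8 and 13.8, 16.0 and 14.03 at 16 weeks. Lumican transcripts at 16 weeks were lower in all NOR than in all BALB/c libraries, with overlap at 3 and 8 weeks. Lum had −0.43 ± 0.16 at 16 weeks and 0.78 ± 0.18 from 3 to 8 weeks in NOR LGs, both under the cutoff. Ogn in BALB/c LGs was measured at 10.7, 10.2 and 8.61 at 3 weeks, 22.3, 13.8 and 15.7 at 8 and 18.8, 21.7 and 16.3 at 16 weeks. NOR LGs held Ogn at 12.1, 11.5 and 7.03 at 3 weeks, 17.9, 18.8 and 16.0 at 8 and 16.98, 19.8 and 19.5 at 16 weeks. For Ogn, which encodes mimecan, the 3-week libraries were the lowest of each strain and the strains overlapped at every age. Ogn from 3 to 8 weeks had 0.73 ± 0.18 in NOR and 0.81 ± 0.17 in BALB/c LGs, under the cutoff. Aspn ran from 2.54 to 5.49 CPM over the 18 libraries and was not called in any of the 10 comparisons.

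Sparc, Eln and Lox fell from 3 to 8 weeks in both strains. Sparc in BALB/c LGs stood at 211, 220.1 and 157 at 3 weeks, 97.5, 78.0 and 69.6 at 8 and 64.7, 73.7 and 87.1 at 16 weeks. NOR LGs held Sparc at 253, 256 and 256 at 3 weeks, 85.5, 85.9 and 70.7 at 8 and 64.3, 81.9 and 72.7 at 16 weeks. Every 3-week library lay above every older library of its strain, and the strains overlapped at 8 and 16 weeks. Sparc fell, at −1.66 ± 0.14 (adjusted p = 1.16e-07, 3 of 3 below) in NOR and −1.26 ± 0.14 (adjusted p = 2.10e-06, 3 of 3 below) in BALB/c LGs by edgeR's QL test, with a difference between these falls of −0.40 ± 0.20, adjusted p = 0.293, not called. Eln in BALB/c LGs was measured at 21.6, 15.4 and 17.2 at 3 weeks, 5.66, 5.66 and 8.18 at 8 and 5.27, 4.95 and 6.15 at 16 weeks. NOR LGs held Eln at 14.6, 17.3 and 21.97 at 3 weeks, 4.81, 5.33 and 5.11 at 8 and 6.83, 9.53 and 9.36 at 16 weeks. The 3-week libraries were again the highest, and at 16 weeks all NOR libraries lay above all BALB/c libraries, while at 8 weeks they lay below them. Eln, which encodes the core of elastic fibres, fell, at −1.79 ± 0.18 (adjusted p = 8.60e-07, 3 of 3 below) in NOR and −1.46 ± 0.17 (adjusted p = 4.00e-06, 3 of 3 below) in BALB/c LGs. Its strain difference changed by 1.01 ± 0.27, adjusted p = 0.0264, from 8 to 16 weeks, a call that ended without 8-week BALB/c replicate 3, 16-week BALB/c replicates 1 and 2, 8-week NOR replicate 3 or 16-week NOR replicate 2 (0.80 to 1.01, adjusted p 0.0586 to 0.0905). At 8 and 16 weeks the strain difference itself was −0.37 ± 0.19 and 0.65 ± 0.18, under the cutoff. Without the 3 parotid-rich libraries the falls of Sparc were −1.69 and −1.19, and those of Eln −1.56 and −1.57.

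Lox in BALB/c LGs stood at 3.39, 2.18 and 2.66 at 3 weeks, 0.944, 1.19 and 1.75 at 8 and 1.33, 1.14 and 3.36 at 16 weeks. NOR LGs held Lox at 1.93, 2.00 and 3.52 at 3 weeks, 0.938, 1.24 and 0.646 at 8 and 1.24, 1.84 and 1.49 at 16 weeks. Lysyl oxidase cross-links collagen and elastin, and its 3-week libraries lay above all 8-week libraries of the strain, with overlap between the strains at every age. Lox fell from 3 to 8 weeks, at −1.32 ± 0.42 (adjusted p = 0.0192, 3 of 3 below) in NOR and −1.07 ± 0.38 (adjusted p = 0.0407, 3 of 3 below) in BALB/c LGs by edgeR's QL test. The NOR call ended without 3-week NOR replicate 3 or 8-week NOR replicate 3 (−1.11 to −1.06, adjusted p 0.0761 to 0.0835) and without the 3 parotid-rich libraries (−1.08, adjusted p = 0.196), and the BALB/c call without 3-week BALB/c replicates 1 and 3 or 8-week BALB/c replicates 1 and 2 (−1.10 to −0.88, adjusted p 0.0729 to 0.155), which was −1.21 (adjusted p = 0.0417) without the parotid-rich libraries. Loxl1 in BALB/c LGs was at 4.11, 3.95 and 2.53 at 3 weeks, 5.90, 4.06 and 4.23 at 8 and 3.85, 4.19 and 3.80 at 16 weeks. NOR LGs held Loxl1 at 4.29, 5.51 and 4.39 at 3 weeks, 5.92, 5.64 and 4.94 at 8 and 7.11, 7.88 and 6.38 at 16 weeks. NOR libraries of 16 weeks were the highest, and lay above all BALB/c libraries of that age, as those of 3 weeks did. Loxl1, the lysyl oxidase of elastic fibres and the highest of the 3 lysyl oxidases per kb (1.48 CPM), had a strain difference of 0.87 ± 0.18 at 16 weeks, under the cutoff. Loxl2 ran from 4.23 to 7.31 CPM and was not called in any of the 10 comparisons.

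Fbn1 in BALB/c LGs stood at 27.4, 21.1 and 15.3 at 3 weeks, 32.3, 28.2 and 26.1 at 8 and 25.1, 25.5 and 33.4 at 16 weeks. NOR LGs held Fbn1 at 31.1, 27.2 and 27.9 at 3 weeks, 32.0, 26.5 and 27.9 at 8 and 48.5, 61.8 and 51.9 at 16 weeks. Fibrillin transcripts were highest in the NOR libraries of 16 weeks, which lay above all other libraries, and the strains overlapped at 3 and 8 weeks. Fbn1 had a strain difference of 0.95 ± 0.16 (adjusted p = 5.72e-05, 3 of 3 above) at 16 weeks by edgeR's QL test, and was called without 16-week BALB/c replicate 3 or 16-week NOR replicates 1 and 3 (1.02 to 1.13, adjusted p 3.23e-05 to 0.000149). From 8 to 16 weeks it had 0.91 ± 0.16 (adjusted p = 0.000284, 3 of 3 above) in NOR LGs, and was called without 8-week NOR replicate 1 or 16-week NOR replicate 1 (1.04, adjusted p 8.15e-05 to 0.000356). The strain difference of Fbn1 changed by 0.95 ± 0.22, adjusted p = 0.0172, over these ages, and was called without 8-week BALB/c replicate 3, 16-week BALB/c replicate 3, 8-week NOR replicate 1 or 16-week NOR replicates 1 and 3 (1.01 to 1.15, adjusted p 0.00377 to 0.0289), by DESeq2 (1.00) and with DESeq2 size factors (1.00). Fn1 in BALB/c LGs was at 45.6, 43.2 and 24.3 at 3 weeks, 62.4, 53.6 and 63.4 at 8 and 55.2, 60.2 and 73.5 at 16 weeks. NOR LGs held Fn1 at 39.5, 39.9 and 43.8 at 3 weeks, 55.3, 46.0 and 45.3 at 8 and 66.3, 93.3 and 79.0 at 16 weeks. NOR libraries of 16 weeks held the most fibronectin transcripts on average, and the strains overlapped at each age. Fn1 was not called in any of the 10 comparisons, with 0.71 ± 0.17 from 8 to 16 weeks in NOR and 0.67 ± 0.18 from 3 to 8 weeks in BALB/c LGs.

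Postn, which encodes periostin, ran from 18.9 to 54.5 CPM over the 18 libraries and was not called over all libraries. Postn from 3 to 8 weeks in BALB/c LGs had −0.99 ± 0.22 (adjusted p = 0.00209, 3 of 3 below) by edgeR's QL test, and was called without 3-week BALB/c replicate 3 or 8-week BALB/c replicate 1 (−1.17 to −1.09, adjusted p 0.000775 to 0.00427) and with the parotid covariate (−1.08). The change of its strain difference from 3 to 8 weeks, 0.99 ± 0.31, adjusted p = 0.0785, was not called, and was called without 3-week BALB/c replicate 3 (1.17, adjusted p = 0.0380) and with that covariate (1.07). From 3 to 16 weeks it was 0.95 ± 0.30, adjusted p = 0.0294, and called without 3-week BALB/c replicate 3, 16-week BALB/c replicate 3, 3-week NOR replicate 1 or 16-week NOR replicate 1 (1.01 to 1.27, adjusted p 0.00468 to 0.0446) and with the covariate (1.16).

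The last 3 members mark mesenchymal and other cells more than matrix. Vim in BALB/c LGs stood at 19.2, 28.1 and 13.9 at 3 weeks, 19.7, 19.2 and 21.4 at 8 and 24.04, 22 and 32.1 at 16 weeks. NOR LGs held Vim at 19.7, 22.9 and 27.1 at 3 weeks, 48.2, 33.5 and 32.2 at 8 and 70.8, 113 and 95.5 at 16 weeks. NOR libraries lay above all BALB/c libraries at 8 and 16 weeks, the strains overlapped at 3 weeks, and the 16-week NOR libraries were the highest of all 18. Vim, the intermediate filament gene of fibroblasts, endothelium and leukocytes, had a strain difference of 1.83 ± 0.21 (adjusted p = 1.02e-06, 3 of 3 above) at 16 weeks by edgeR's QL test. It rose in NOR LGs from 8 to 16 weeks by 1.29 ± 0.21 (adjusted p = 0.000152, 3 of 3 above), and its strain difference grew by 1.65 ± 0.31, adjusted p = 0.00123, from 3 to 16 weeks (1.61, adjusted p = 0.0130, without the 3 parotid-rich libraries). At 8 weeks the strain difference of 0.91 ± 0.22 (adjusted p = 0.00363, 3 of 3 above) was under the cutoff, and was called without 8-week NOR replicate 3 (1.02, adjusted p = 0.00359). From 8 to 16 weeks it changed by 0.92 ± 0.30, not called, and was called without 16-week BALB/c replicate 3, 8-week NOR replicate 1 or 16-week NOR replicate 1 (1.15 to 1.19, adjusted p 0.0103 to 0.0346) and with the parotid covariate (1.08). Pdgfrb in BALB/c LGs was measured at 11, 10.6 and 8.99 at 3 weeks, 4.17, 5.87 and 5.36 at 8 and 7.03, 4.87 and 8.50 at 16 weeks. NOR LGs held Pdgfrb at 6.5, 8.65 and 8.44 at 3 weeks, 7.57, 6.26 and 5.76 at 8 and 8.90, 13.96 and 14.7 at 16 weeks. BALB/c libraries of 3 weeks were above and those of 16 weeks below all NOR libraries of the age, and the strains overlapped at 8 weeks.

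Pdgfrb, the receptor that marks pericytes and fibroblasts, had a change of its strain difference of 1.25 ± 0.29, adjusted p = 0.00469, from 3 to 16 weeks by edgeR's QL test, and of 1.504 (adjusted p = 0.0232) without the 3 parotid-rich libraries. At 16 weeks its strain difference of 0.85 ± 0.20 (adjusted p = 0.00129, 3 of 3 above) was under the cutoff, and was called without 16-week BALB/c replicate 3 or 16-week NOR replicate 1 (1.07 to 1.08, adjusted p 6.52e-05 to 0.000546). In NOR LGs Pdgfrb had 0.93 ± 0.20 (adjusted p = 0.00152, 3 of 3 above) from 8 to 16 weeks, and was called without 8-week NOR replicate 1 or 16-week NOR replicate 1 (1.10 to 1.18, adjusted p 5.62e-05 to 0.00160). BALB/c LGs had −0.98 ± 0.21 (adjusted p = 0.00151, 3 of 3 below) for it from 3 to 8 weeks, and a call without 3-week BALB/c replicate 3 or 8-week BALB/c replicates 2 and 3 (−1.08 to −1.01, adjusted p 0.00243 to 0.00591). Pdgfra, the fibroblast receptor, ran from 10.9 to 20.9 CPM over the 18 libraries and was not called in any of the 10 comparisons.

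**Figure D4:**
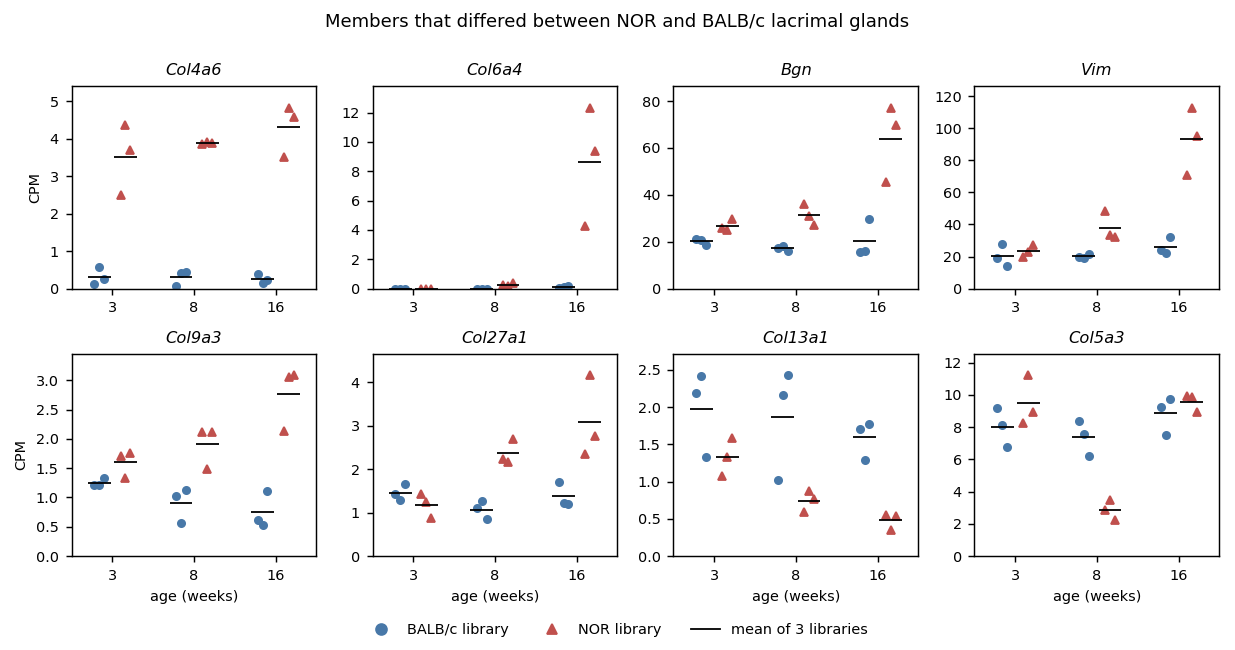
CPM (vertical axis) of Col4a6, Col6a4, Bgn, Vim, Col9a3, Col27a1, Col13a1 and Col5a3 in each library at 3, 8 and 16 weeks (horizontal axis), with BALB/c libraries as circles, NOR as triangles and means as bars. NOR points lie above BALB/c points at 16 weeks for the first 6 genes, and below them at 16 weeks for Col13a1 and at 8 weeks for Col5a3.

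Genes that process, turn over or bind collagen were read from lists chosen with earlier results of these data known, and the genes named from them were partly chosen after their values were seen. Of 22 tested genes of collagen processing (P4hb the most abundant per kb), Adamts14 was called higher at 8 weeks (1.33 ± 0.42, adjusted p = 0.0241 by edgeR's QL test) and Lepre1, a prolyl 3-hydroxylase, at 16 weeks (1.28 ± 0.28, adjusted p = 0.000808, 3 of 3 above), with none called at 3 weeks, where edgeR called 0, 4 had an unadjusted p under 0.05 and DESeq2 called 0. The Adamts14 call ended without 8-week BALB/c replicates 1 and 3 or 8-week NOR replicates 1 and 3 (0.93 to 1.33, adjusted p 0.05001 to 0.1). Of 15 tested genes of collagen turnover (Timp2 the most abundant per kb), Mmp3 was called lower at 3, 8 and 16 weeks (−1.70, −1.70 and −1.03, 3, 3 and 3 of 3 libraries below), Mmp9 at 8 weeks, Mmp12 and Ctsk at 8 and 16 weeks, and Timp4 and Mrc2 were higher at 16 weeks. Mmp9, with 2, 0 and 1 counts in the 8-week NOR libraries, and Mmp12 passed the low-count filter only with BALB/c libraries, and Timp4 only with NOR libraries. As with Col25a1, the calls of these 3 genes are not read as a result. At 16 weeks the Mmp3 call ended without 16-week BALB/c replicate 3 or 16-week NOR replicates 1 and 3 (−0.94 to −0.67, adjusted p 0.0177 to 0.0467), and at 3 weeks without the parotid-rich libraries (−1.29, adjusted p = 0.231). Those of Mmp12 ended without 8-week BALB/c replicates 1 and 3 or 8-week NOR replicates 1, 2 and 3 (−2.45 to −1.59, adjusted p 0.0530 to 0.217) at 8 weeks and without 16-week BALB/c replicate 3 or 16-week NOR replicates 2 and 3 (−1.35 to −0.80, adjusted p 0.102 to 0.286) at 16 weeks. The Ctsk calls ended without 8-week BALB/c replicate 1 or 8-week NOR replicate 3 (−0.99 to −0.86, adjusted p 0.0136 to 0.0193) at 8 weeks and without 16-week NOR replicate 1 (−0.83, adjusted p = 0.00999) at 16 weeks, that of Timp4 without 16-week BALB/c replicate 2 or 16-week NOR replicates 2 and 3 (1.77 to 1.98, adjusted p 0.0541 to 0.0617) and that of Mrc2 without 16-week BALB/c replicate 2 or 16-week NOR replicate 3 (0.85 to 0.89, adjusted p 0.0402 to 0.0433).

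Of 8 tested collagen receptor genes (Itgb1 the most abundant per kb, Gp6 at 0), Lair1, an inhibitory receptor of leukocytes, was called higher at 8 weeks (2.38 ± 0.37 (adjusted p = 7.95e-05, 3 of 3 above) by edgeR's QL test) and 16 weeks (2.80 ± 0.33, adjusted p = 1.50e-06, 3 of 3 above), and Itga11 at 16 weeks (1.42 ± 0.37, adjusted p = 0.00309, 3 of 3 above). Among 14 laminin and nidogen genes (Nid1 the most abundant per kb) Lama1 was called, lower at 16 weeks (−1.124 ± 0.23, adjusted p = 0.000475, 3 of 3 below). Of 11 tested partners of elastic fibres (Efemp1 the most abundant per kb) Ltbp2 was called higher at 8 weeks, and Fbln1, Emilin1, Ltbp1 and Ltbp2 at 16 weeks (1.36, 1.11, 1.10 and 2.11, with 3, 3, 3 and 3 of 3 libraries above). The 8-week call of Ltbp2 ended without any 1 of the 6 libraries (1.33 to 1.87, adjusted p 0.0509 to 0.128) and the call of Ltbp1 without 16-week BALB/c replicates 1 and 2 or 16-week NOR replicate 2 (0.91 to 0.99, adjusted p 0.00853 to 0.0127). Of 8 other matrix genes tested (Ctgf the most abundant per kb), Thbs1 was called higher at 8 weeks (2.68 ± 0.31, adjusted p = 2.88e-06, 3 of 3 above) and lower at 16 weeks (−1.59 ± 0.24, adjusted p = 2.41e-05, 3 of 3 below), where Cyr61 was lower too (−1.96 ± 0.26, adjusted p = 5.19e-06, 3 of 3 below). At 3 weeks these 4 lists held no call by edgeR, with 0, 3, 2 and 1 genes at an unadjusted p under 0.05 and 0, 0, 0 and 0 called by DESeq2, in the same order.

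Levels of cell markers moved beside those of Vim, Bgn, Fbn1 and Pdgfrb, and their part in these results was not tested. T-cell markers (Cd3g the most abundant per kb) were called higher in NOR LGs in 0 of 5 genes at 3 weeks by edgeR, where 0 had an unadjusted p under 0.05 and DESeq2 called 0, and in 5 of 5 at 8 and 16 weeks. Their summed level was 0.164, 0.323 and 0.253 at 3 weeks, 0.550, 0.489 and 0.282 at 8 and 0.523, 0.685 and 1.30 at 16 weeks (CPM) in BALB/c LGs. NOR LGs held 0.571, 0.190 and 0.703 at 3 weeks, 21.8, 5.89 and 8.46 at 8 and 41.1, 102 and 62.4 at 16 weeks for these T-cell markers. B-cell markers (Cd79b the most abundant per kb) were called higher in the same comparisons, 5 of 5 at 8 and 16 weeks, and at 3 weeks 0 had an unadjusted p under 0.05 and DESeq2 called 0. They summed to 0.109, 0.0807 and 0.0633 at 3 weeks, 0, 0.210 and 0.395 at 8 and 0.570, 0.381 and 4.56 at 16 weeks in BALB/c LGs. NOR LGs held 0.0714, 0.190 and 0 at 3 weeks, 19.3, 5.77 and 9.81 at 8 and 109, 360.1 and 220.0 at 16 weeks for these B-cell markers. Among these, Pax5 lost its 8-week call without 8-week NOR replicate 1 (4.91, adjusted p = 0.0542). BALB/c libraries held too little of the T-cell and B-cell markers for these genes to pass the low-count filter without NOR libraries. As with Col4a6, their strain calls are therefore not read as a result, and their levels are given. Macrophage markers (C1qa the most abundant per kb) were higher in 3 of 5 genes at 8 weeks (Emr1, Cd68 and C1qa) and 4 of 5 at 16 weeks (Emr1, Csf1r, Cd68 and C1qa), and none was called at 3 weeks (edgeR 0, 3 at an unadjusted p under 0.05, DESeq2 0). Summed, they stood at 30.9, 36.3 and 18.9 at 3 weeks, 62.9, 52.0 and 72.2 at 8 and 72.9, 67.3 and 84.7 at 16 weeks in BALB/c LGs. In NOR LGs the macrophage markers stood at 38.7, 42.0 and 39.4 at 3 weeks, 164, 125 and 116 at 8 and 160.2, 236 and 185 at 16 weeks. Vim and Bgn were, like the T-cell and B-cell markers, highest in the NOR libraries of 16 weeks. Within that group replicate 1 was the lowest for all of them. It was also the lowest for the summed level of all members (1366, 1621 and 1559 CPM), though not for every member, so this order was not particular to these genes.

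Markers of fibroblasts outside the members (Clec3b the most abundant per kb, Tcf21 at 0) were not called in any comparison by edgeR, 0 of 4 tested genes. At an unadjusted p under 0.05 there were 0, 2 and 0 in the strain comparisons of 3, 8 and 16 weeks, and 0 and 4 from 3 to 8 weeks and 3 and 0 from 8 to 16 weeks in NOR and BALB/c LGs. For changes of the strain difference there were 2, 3 and 0 from 3 to 8, 8 to 16 and 3 to 16 weeks, and DESeq2 called 1 between the strains at 8 weeks. Their sum was 62.4, 69.5 and 40.0 at 3 weeks, 101, 72.4 and 91.7 at 8 and 85.1, 88.5 and 77.4 at 16 weeks (CPM) in BALB/c LGs. NOR LGs held 66.7, 58.7 and 55.2 at 3 weeks, 69.0, 55.5 and 59.2 at 8 and 82.9, 102 and 79.6 at 16 weeks for these fibroblast markers. Endothelial markers (Pecam1 the most abundant per kb) summed to 51.0, 56.5 and 45.9 at 3 weeks, 34.7, 34.5 and 35.2 at 8 and 32.7, 30.4 and 36.9 at 16 weeks in BALB/c LGs. In NOR LGs the endothelial markers summed to 35.4, 46.4 and 46.6 at 3 weeks, 29.2, 24.99 and 27.5 at 8 and 40.5, 62.0 and 49.5 at 16 weeks. They were highest at 3 weeks in BALB/c LGs, as Col4a1 and Col4a2 were, and at 16 weeks in NOR LGs (mean 50.7). From 3 to 8 weeks 2 of 5 were called in NOR LGs. The call of Emcn ended without 3-week NOR replicate 3 or 8-week NOR replicate 1 (−0.97 to −0.93, adjusted p 0.00430 to 0.00587 by edgeR's QL test) and without the 3 parotid-rich libraries (−0.88). In BALB/c LGs 0 were called by edgeR or DESeq2, with 3 at an unadjusted p under 0.05. From 8 to 16 weeks 1 was called in NOR LGs, and 1 in each change of the strain difference up to 16 weeks. Between the strains 1 of 5, Pecam1, was called, at 16 weeks (1.44 ± 0.19 (adjusted p = 6.03e-06, 3 of 3 above) by edgeR's QL test). Pecam1 made up 20.4, 39.0 and 29.1 CPM of the sum in the 16-week NOR libraries, while Kdr was lower in all NOR than in all BALB/c libraries of each age, under the cutoff (−0.74 ± 0.15, −0.50 ± 0.15 and −0.34 ± 0.15, adjusted p 0.00157, 0.0164 and 0.0649). Pericyte markers (Rgs5 the most abundant per kb) summed to 8.93 to 23.7 over the 18 libraries, with Abcc9 called lower in NOR LGs at 8 weeks and Abcc9 and Rgs5 at 16 weeks, while Pdgfrb was not called. Those calls ended without 8-week NOR replicate 3 (−0.99, adjusted p = 0.00720) for Abcc9 at 8 weeks, without 16-week BALB/c replicate 3 or 16-week NOR replicate 2 (−0.93 to −0.83, adjusted p 0.00814 to 0.0198) at 16 weeks, and without 16-week BALB/c replicate 3 (−0.36, adjusted p = 0.216) for Rgs5.

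Smooth muscle and myoepithelial markers (Acta2 the most abundant per kb) summed to 71.5 to 219 CPM, with overlap between the strains at 3 weeks. At 8 weeks the sums were 109, 121 and 113 in BALB/c and 219, 202 and 173 in NOR LGs. At 16 weeks they were 116, 128 and 123 in BALB/c and 167, 186 and 182 in NOR LGs. All 5 genes had an unadjusted p under 0.05 at 8 weeks, where Tagln was called higher (1.01 ± 0.13 (adjusted p = 9.63e-06, 3 of 3 above) by edgeR's QL test). The Tagln call ended without 8-week BALB/c replicates 1 and 3 or 8-week NOR replicate 1 (0.84 to 0.97, adjusted p 9.78e-05 to 0.000139). Proliferation markers (Mki67 the most abundant per kb) summed to 23.5 to 107 CPM, and Mki67, Cdk1, Ccnb1 and Birc5 were called higher at 3 weeks, where none kept its call without the 3 parotid-rich libraries (log2 fold changes 0.68, 0.67, 1.73 and 1.26, adjusted p 0.240, 0.388, 0.256 and 0.287). Later Birc5 was called at 8 weeks and Top2a, Cdk1, Ccnb1 and Birc5 at 16 weeks, calls that ended without any 1 of the 6 libraries (1.25 to 1.64, adjusted p 0.0543 to 0.152) for Birc5 at 8 weeks and without 16-week NOR replicate 2 (0.9999, adjusted p = 0.0501) for Cdk1. Plasma cell markers (Derl3 the most abundant per kb) summed to 208 to 638 CPM. Their 8-week sums were 232, 233 and 278 in BALB/c and 447, 461 and 473 in NOR LGs, and those of 16 weeks 275, 257 and 242 in BALB/c and 543, 608 and 638 in NOR LGs. Igj and Tnfrsf17 were called higher at 8 and 16 weeks, and Tnfrsf17 lost its 8-week call without 8-week BALB/c replicates 1 and 2 or 8-week NOR replicate 3 (2.06 to 2.14, adjusted p 0.103 to 0.142), while Derl3 had −0.61 ± 0.13 (adjusted p = 0.000809, 3 of 3 below) at 16 weeks, under the cutoff. Adipocyte and skeletal muscle markers (Cfd and Acta1 the most abundant per kb) summed to 1.33 to 39.8 and 0.985 to 169 CPM, and none of their calls between the strains held without each single library, so none is read as a difference. Schwann cell markers (Pmp22 the most abundant per kb) summed to 27.4 to 38.5 CPM, and edgeR called 0 of 4 between the strains (0, 1 and 2 at an unadjusted p under 0.05 at 3, 8 and 16 weeks, DESeq2 0, 0 and 1). Of the acinar markers Sox10 was called higher at 3 weeks (1.14 ± 0.23, adjusted p = 0.00150, 2 of 3 above), a call that ended without 3-week NOR replicates 2 and 3 (0.92 to 0.96, adjusted p 0.0106 to 0.0166) and without the 3 parotid-rich libraries (0.33, adjusted p = 0.354). Bhlha15, the most abundant of them per kb, had −0.84 ± 0.16 (adjusted p = 0.000411, 3 of 3 below) at 8 and −0.77 ± 0.15 (adjusted p = 0.000379, 3 of 3 below) at 16 weeks, under the cutoff. Of the parotid markers Prb1 was called higher at 3 weeks, a call that ended without 3-week BALB/c replicates 1 and 3 or 3-week NOR replicate 2 (3.78 to 3.87, adjusted p 0.0563 to 0.0822) and without the 3 parotid-rich libraries (3.39). Smr2, at 5.11, 5.73 and 0.959 CPM in BALB/c and 0, 0 and 0 in NOR LGs, was called lower at 8 weeks. Most counts of Smr2 lay in these 8-week BALB/c libraries, so this call is not read as a result. DESeq2 did not call Tagln (0.99) and Tnfrsf17 (adjusted p = 0.0570) at 8 weeks, Prb1 (adjusted p = 0.371) at 3 weeks or Mmp3 (−0.999) and Mmp12 (adjusted p = 0.0929) at 16 weeks, and called Ccnb1 at 8 and Mmp14 at 16 weeks, which edgeR did not.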

How the data were processed

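Gene-level counts were deposited by the authors, who, per the submitters' processing notes, mapped 50-base reads of stranded mRNA libraries to mm10 by HISAT2 and took counts from featureCounts 1.6.2, with no option for strand, multi-mapping or overlap in the command. Counts were analysed in R 4.3.3 with edgeR 4.0.16 in 1 fit of 6 group means over all 18 libraries, with TMM scaling, filterByExpr (minimum count 10, minimum total 15) and quasi-likelihood F-tests, adjusted by Benjamini-Hochberg over 13376 genes. Of 23337 genes 4978 had no counts. CPM used the TMM effective library size, CPM per kb the exon length in the deposited table, and the SE of a log2 fold change is its size divided by the square root of F. The common dispersion was 0.0191 (coefficient of variation 13.8%), and between replicates of a group the chi-square per degree of freedom ran from 4.36 to 131, so no pair agreed within sampling noise. The members and all gene lists were chosen with earlier results of these data known. Values of every library are given for members called in a strain comparison or in a change of the strain difference (at most 30 by adjusted p), the most abundant member of each class per kb, and the 5 members with the smallest p in each direction of each comparison of ages; of the lists, counts, the most abundant gene and genes among the 3 with the smallest p in each direction of each strain comparison. Tried as alternatives were leaving out each library, DESeq2 1.42.0 or only its size factors, a replicate block, the log2 parotid level as a covariate, TMM without the 20 most abundant genes, fitting the compared groups alone, no fold-change cutoff, and other filters (none, or a mean CPM of 1). Leaving out 3 parotid-rich libraries of 3 weeks was added after seeing the data. A group at 0 was given a floor of 3 counts. Promoters came from RefSeq, build GRCm38.p6. Python 3.11.15 with pandas 2.3.3 and matplotlib 3.10.9 made the figures, and the scripts were tested on simulated data.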

Additional observations from a re-analysis of the deposited data

Results flagged for a closer look

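For 8 results, the strain effect differed between ages by a test of that difference, edgeR's contrast of both strain comparisons, given as log2 fold change ± SE. From 3 to 8 weeks Col5a3 changed by −1.60 ± 0.25 (adjusted p = 0.00112), and from 8 to 16 weeks by 1.47 ± 0.24 (adjusted p = 0.00267), since its 8-week NOR libraries lay below all others. Eln changed by 1.01 ± 0.27 (adjusted p = 0.0264) from 8 to 16 weeks. From 3 to 16 weeks the strain difference of Col27a1 changed by 1.42 ± 0.39 (adjusted p = 0.0125), that of Col9a3 by 1.48 ± 0.43 (adjusted p = 0.0176), that of Bgn by 1.23 ± 0.29 (adjusted p = 0.00565), that of Vim by 1.65 ± 0.31 (adjusted p = 0.00123) and that of Pdgfrb by 1.25 ± 0.29 (adjusted p = 0.00469), each toward higher levels in NOR LGs. Changes of Col27a1 and Col9a3 were not called without the 3 parotid-rich libraries, at 1.31 (adjusted p = 0.0868) and 1.42 (adjusted p = 0.0963). That of Col9a3 also ended without 16-week BALB/c replicate 1 (1.33, adjusted p = 0.0519) and that of Eln without 8-week BALB/c replicate 3, 16-week BALB/c replicates 1 and 2, 8-week NOR replicate 3 or 16-week NOR replicate 2 (0.80 to 1.01, adjusted p 0.0586 to 0.0905), each left out alone.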

How the results depend on the processing

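No call of a member changed its direction under any alternative. Of 51 calls of members, 34 held without any 1 library and 17 ended without at least 1. Counts of called members ranged from 2 to 3, 5 to 6 and 9 to 14 between the strains at 3, 8 and 16 weeks under leave-one-out, from 8 to 12 and 3 to 8 in NOR LGs from 3 to 8 and from 8 to 16 weeks, and from 5 to 8 and 0 to 0 in BALB/c LGs. For changes of the strain difference, leave-one-out gave 1 to 2 between 3 and 8 weeks, 1 to 5 between 8 and 16 and 4 to 7 between 3 and 16. With no fold-change cutoff 4, 16 and 27 members passed between the strains at 3, 8 and 16 weeks, and 25 and 18 in NOR and 21 and 1 in BALB/c LGs. For changes of the strain difference, 5 passed up to 16 weeks from 8 and 11 from 3 weeks, the cutoff being what limits all these counts. From 3 to 8 weeks 1 passed, as with the cutoff. Shares of all tested genes without the cutoff are not given here, so these counts are not read as a result about the members. From 3 to 8 weeks in NOR LGs 7 members were called without the 3 parotid-rich libraries, against 11 with them, with fewer libraries fitted. For the strain difference's change between 3 and 8 weeks, 2 members were called where only the groups compared were fitted (Col27a1 added) and 2 with the parotid covariate (Postn added), against 1, and the cause was not tested. Median log2 fold changes of the members moved too over all alternatives, from 0.09 to 0.22, −0.03 to 0.13 and 0.14 to 0.43 between the strains at 3, 8 and 16 weeks, −0.26 to −0.04 and 0.24 to 0.41 in NOR and −0.31 to −0.16 and 0.01 to 0.16 in BALB/c LGs from 3 to 8 and 8 to 16 weeks, and, for the strain difference's changes, −0.15 to 0.03 between 3 and 8 weeks, 0.11 to 0.35 between 8 and 16 and 0.04 to 0.28 between 3 and 16. The NOR median from 3 to 8 weeks was −0.05 without the 3 parotid-rich libraries.

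DESeq2 kept 49 of the 51 calls and lost 2, both of Fmod, at 8 weeks and from 3 to 8 weeks in BALB/c LGs. DESeq2 size factors in edgeR, TMM without the 20 most abundant genes and no low-count filter kept 51, and the parotid covariate kept 50, losing Fmod from 3 to 8 weeks in BALB/c LGs. Fitting just the compared groups kept 48 of 48 calls and did not test the other 3 (Col6a4 at 8 weeks and from 3 to 8 weeks in NOR LGs, Fmod from 3 to 8 weeks in BALB/c LGs), and a mean CPM filter of 1 kept 48 of 48 and did not test the 3 of Fmod. The replicate block kept 51. Its use rests on pairing by replicate number, and of 45 correlations between groups across replicate numbers 23 passed 0.1 (median 0.125, range −0.362 to 0.395), so the numbers are not taken to pair samples. Without the 3 parotid-rich libraries 21 of the 27 calls of comparisons that include 3 weeks were kept, and the causes of these losses were not tested. Low counts limit Col4a6, Col6a4, Fmod, Lox, Col9a3 and Col13a1, as well as the 11 genes not tested. Bulk tissue and 3 libraries a group limit what can be read.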
